A study of Mus musculus with 3 samples.

Results

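The cell cycle was read from 46 genes, 20 of S phase and 26 of G2 and mitosis, among the 32285 genes counted in single cells of mouse dorsal skin. The members were taken by symbol: *Mcm2*, *Mcm3*, *Mcm4*, *Mcm5*, *Mcm6*, *Mcm7*, *Pcna*, *Tyms*, *Rrm1*, *Rrm2*, *Gins2*, *Cdc6*, *Cdc45*, *Cdt1*, *Slbp*, *Uhrf1*, *Dtl*, *Fen1*, *Chaf1b* and *Ccne2* formed the S-phase list, and *Mki67*, *Top2a*, *Ube2c*, *Cdk1*, *Ccnb1*, *Ccnb2*, *Ccna2*, *Birc5*, *Aurka*, *Aurkb*, *Bub1*, *Bub1b*, *Cenpe*, *Cenpf*, *Plk1*, *Tpx2*, *Nusap1*, *Hmmr*, *Anln*, *Ect2*, *Kif11*, *Kif20b*, *Kif23*, *Ckap2*, *Cdc20* and *Smc4* formed the mitotic list. There were 3 libraries, 1 per group, each from the pooled back skin of 7 to 8 female C3H/HeN mice aged 25 weeks. The Neg group was the unaffected, vehicle-labelled control, the AA group was the alopecia areata model, and the AA+Ab group was the same model given a neutralizing antibody to the chemokine CXCL12, whose dose and schedule are not given in the sources used here. In the study's methods the model was made by moving skin-draining lymph node cells of affected mice, expanded in culture, into C3H/HeN recipients. With 1 pooled library per group no difference between groups could be set against the spread between mice, and the intervals given are 95% intervals that cover counting error only.

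A cell that divides first copies its DNA in S phase and then parts the copies in mitosis. MCM proteins are loaded on replication origins by *Cdc6* and *Cdt1* and unwind the DNA, *Pcna* clamps the polymerases to it, and ribonucleotide reductase (*Rrm1*, *Rrm2*) and *Tyms* supply nucleotides. *Cdk1* with its cyclins *Ccnb1* and *Ccnb2* starts mitosis, and *Cdc20* and *Ube2c* end it by marking cyclin B for destruction. In growing hair follicles division is concentrated in the matrix at the base of the bulb, whose daughters build the hair shaft and the inner root sheath, while in the epidermis it is a property of the basal layer.

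The kept cells, those with at most 10% mitochondrial unique molecular identifiers (UMIs, each 1 captured RNA molecule) and at least 200 genes, numbered 6582 in Neg, 10433 in AA and 9832 in AA+Ab, of 6965, 10879 and 10507 barcodes. Their UMIs summed to between 119193310 and 139663314 per library, with a median of 13694.5 per cell in Neg, 11177 in AA and 11371 in AA+Ab. Pairs of libraries shared 17 to 28 cell barcodes. Levels are UMIs of a gene or list per 1000000 UMIs of the same cells (CPM). Cells were placed in classes by clustering without 541 cell cycle genes and 433 others that followed them, and a cluster was named from marker genes with thresholds set after the clusters were seen. All 46 members passed the minimum of 60 UMIs over the 3 libraries in all cells together.

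The letters just before the start of each gene are shown because the members of the lists share short motifs there that the lists were not chosen on. Of the 46 members, 39 had a promoter in the RefSeq table (GRCm38.p6), 17 of the S-phase list and 22 of the mitotic list, and the 250 bases before each start were searched on both strands for CCAAT, for the cell cycle homology region, or CHR (TTTGAA or TTCGAA), and for 4 spellings of an E2F motif (TTTCCCGC, TTTGGCGC, TTTCGCGC and TTTGCCGC). The E2F motif was found in 6 of the 17 S-phase genes (35.3%) and in 1 of the 22 mitotic genes (4.55%), against 2.16% of all 27025 genes in the table. For *Cdc6* and *Mcm7*, 2 of these 6, the whole window with the match lay inside the gene as placed by GENCODE vM21. The CHR was found in 4 S-phase genes (23.5%) and in 10 mitotic genes (45.5%), against 19.6% of all genes. All 10 of these mitotic promoters also held CCAAT, a pair of motifs seen together in 7.00% of all genes. CCAAT, with or without the CHR, was in 70.6% of the S-phase genes, 81.8% of the mitotic genes and 37.5% of all genes. These are matches of letters only. Below, 2 S-phase promoters with the E2F motif and 3 mitotic promoters with the CHR and CCAAT are printed from 5′ to 3′ on the strand of the gene, with matches in capitals and the last base next to the start. *Mcm5* (chr8:75109259-75109508, plus strand) and *Mcm6* (chr1:128359706-128359955, minus strand) encode 2 of the 6 subunits of the replicative helicase. In both, 1 pair of matches is read on both strands of the same stretch and overlaps, and *Mcm6* has a further match apart from it.
Mcm5: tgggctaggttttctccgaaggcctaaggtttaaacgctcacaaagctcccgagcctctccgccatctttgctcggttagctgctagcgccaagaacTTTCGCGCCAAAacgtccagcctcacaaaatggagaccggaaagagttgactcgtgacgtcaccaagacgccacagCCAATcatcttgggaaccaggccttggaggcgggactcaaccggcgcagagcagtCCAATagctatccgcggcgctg
Mcm6: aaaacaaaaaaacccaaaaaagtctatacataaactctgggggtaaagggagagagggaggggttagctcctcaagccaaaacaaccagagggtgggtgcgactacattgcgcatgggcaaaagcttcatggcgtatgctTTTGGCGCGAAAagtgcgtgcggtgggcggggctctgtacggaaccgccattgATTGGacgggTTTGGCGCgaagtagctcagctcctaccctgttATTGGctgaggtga
*Top2a* (chr11:99024190-99024439, minus strand) encodes the topoisomerase that untangles sister chromatids. *Mki67* (chr7:135716380-135716629, minus strand) encodes the coat protein of mitotic chromosomes. *Kif11* (chr19:37376132-37376381, plus strand) encodes the motor that parts the spindle poles. The CHR matched 4 times before *Top2a*, 2 times before *Mki67* and 1 time before *Kif11*, and CCAAT 6, 3 and 1 times.
Top2a: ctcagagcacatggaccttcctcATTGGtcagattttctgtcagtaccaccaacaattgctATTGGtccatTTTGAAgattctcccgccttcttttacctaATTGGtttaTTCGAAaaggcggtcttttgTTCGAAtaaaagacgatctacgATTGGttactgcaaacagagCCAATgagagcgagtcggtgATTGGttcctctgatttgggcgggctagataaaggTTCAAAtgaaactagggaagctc
Mki67: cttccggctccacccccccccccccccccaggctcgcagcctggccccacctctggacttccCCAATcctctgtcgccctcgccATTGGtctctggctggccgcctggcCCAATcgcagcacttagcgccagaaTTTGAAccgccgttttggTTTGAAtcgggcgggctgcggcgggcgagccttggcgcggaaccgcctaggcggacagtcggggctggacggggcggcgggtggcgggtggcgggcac
Kif11: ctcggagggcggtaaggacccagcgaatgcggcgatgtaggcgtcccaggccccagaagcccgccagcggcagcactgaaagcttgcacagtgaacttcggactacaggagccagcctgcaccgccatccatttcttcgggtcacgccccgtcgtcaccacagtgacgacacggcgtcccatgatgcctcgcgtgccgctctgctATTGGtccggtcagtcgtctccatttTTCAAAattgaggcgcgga

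Over all kept cells both lists were at a lower level in AA than in Neg and close to Neg in AA+Ab. The S-phase list summed to 879 CPM in Neg (873 to 884), 698 CPM in AA (693 to 702) and 877 CPM in AA+Ab (872 to 882). The mitotic list summed to 2059.9 CPM in Neg (2052 to 2068), 1705 CPM in AA (1698 to 1712) and 2134 CPM in AA+Ab (2126 to 2141). As log2 ratios, AA over Neg was -0.33 (-0.35 to -0.32) for the S-phase list and -0.27 (-0.28 to -0.26) for the mitotic list, and AA+Ab over AA was 0.33 (0.32 to 0.34) and 0.32 (0.32 to 0.33). AA+Ab over Neg was -0.0029 (-0.015 to 0.0090) and 0.051 (0.043 to 0.058). The balance of the lists was kept: the S-phase list made up 29.9%, 29.0% and 29.1% of the UMIs of both lists in Neg, AA and AA+Ab. The comparisons AA over Neg and AA+Ab over AA share the AA library, so the lower level in AA and the higher level in AA+Ab over AA are not independent of each other. In such sums fewer cycling cells and less of this RNA per cell cannot be told apart.

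**Figure D1:**
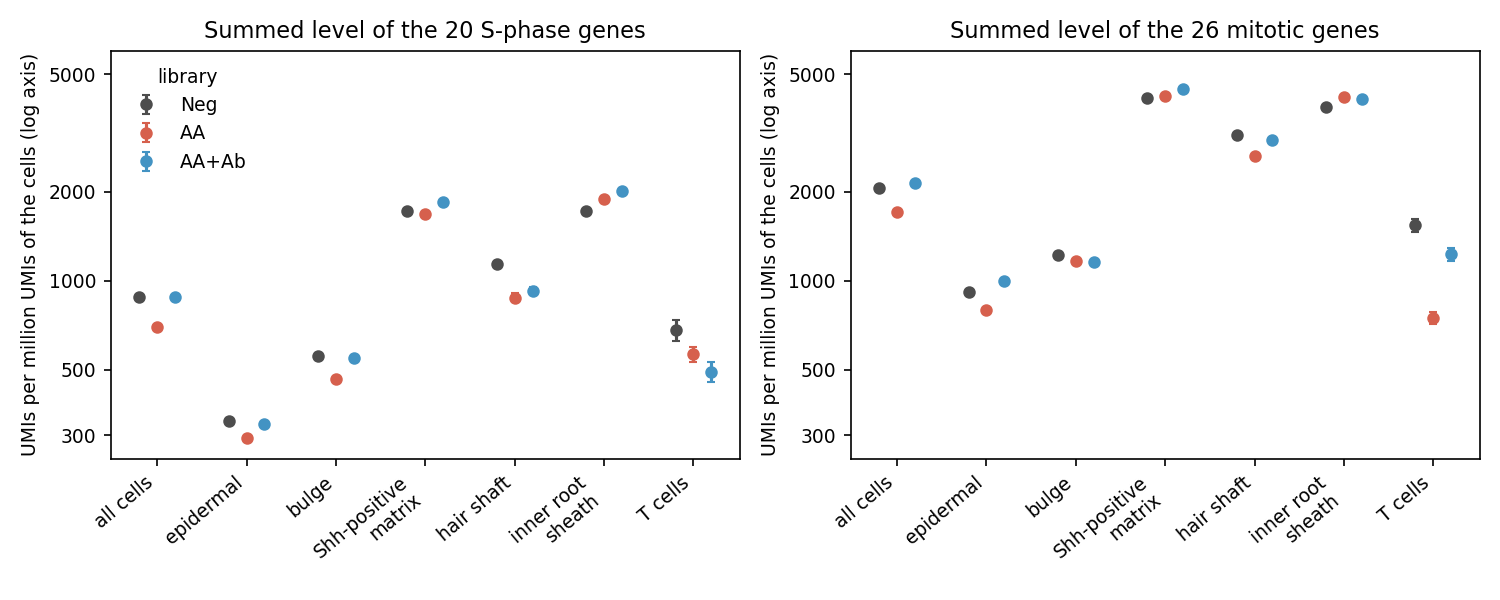
Levels of the S-phase and mitotic lists (CPM, with 95% counting intervals) in the Neg, AA and AA+Ab libraries, on a log axis over all kept cells and in 6 cell classes. Levels of the mitotic list run from 747 CPM in T cells of AA to 4465 CPM in matrix cells of AA+Ab. The matrix, inner root sheath and hair shaft points stand above the bulge and epidermal points in every library.

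The lists had a marked order across the skin. In Neg the mitotic list stood at 4149 CPM in Shh-positive matrix cells, 3858 CPM in the inner root sheath, 3102 CPM in the hair shaft, 1539 CPM in T cells, 1223 CPM in bulge cells and 912 CPM in epidermal cells. The order of the keratinocyte classes as drawn here was matrix, inner root sheath, hair shaft, bulge and epidermis in all 3 libraries. Neighbouring classes did not share an interval except for matrix and inner root sheath in AA, whose levels were 4207 and 4199 CPM. The order depended on how the classes were drawn. With cells classed one by one from marker UMIs, bulge stood above hair shaft in AA, at 1925 against 1625 CPM. The inner root sheath then stood above matrix in AA, at 4236 against 4048 CPM. With cell cycle genes kept in the clustering, the hair shaft was at 312, 254 and 261 CPM in Neg, AA and AA+Ab. Bulge cells were then at 538, 463 and 341 CPM. Basal epidermal cells alone were at 1177, 1127 and 1361 CPM in Neg, AA and AA+Ab. Bulge cells were at 1223, 1164 and 1156 CPM, so basal cells stood above them in AA+Ab. The S-phase list separated hair shaft, bulge and epidermis likewise, but the inner root sheath stood above matrix in AA and AA+Ab, with 1718, 1684 and 1850.3 CPM in Neg, AA and AA+Ab in matrix, 1716, 1882 and 2018 CPM in the inner root sheath and 336, 294 and 327 CPM in the epidermis. High levels were also found in cluster 5, led by *Ntn1*, *Sox5* and *Foxe1*, in which no marker list had enough markers for a name. It had 2027, 1994 and 2183 CPM for the S-phase list and 4515, 4724 and 5041 CPM for the mitotic list in the same order.

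Every member was higher in matrix cells and cluster 5, read as 1 group, than in suprabasal epidermal cells, a layer in which keratinocytes leave the cell cycle as they mature. Cluster 5 has no marker name and was taken up above for its high levels of these same lists. The contrast is so partly fixed by that choice and is given as a description. The span was wide. *Cenpe*, a kinetochore motor, was at 144 against 5.52 CPM, 26.1-fold (23.1 to 29.7), and *Bub1*, a spindle checkpoint kinase, at 62.8 against 2.43 CPM, 25.9-fold (21.5 to 31.4). *Uhrf1*, which carries DNA methylation over to the new strand, was at 119 against 4.81 CPM, 24.7-fold (21.7 to 28.3). The members with the smallest contrast were *Gins2*, a helicase subunit, at 41.7 against 8.71 CPM, 4.79-fold (4.31 to 5.32), *Mcm4* at 75.1 against 14.5 CPM, 5.18-fold (4.78 to 5.62), *Pcna* at 288 against 53.5 CPM, 5.39-fold (5.17 to 5.62) and *Anln*, an actin-binding protein of the cleavage furrow, at 85.5 against 14.6 CPM, 5.85-fold (5.41 to 6.34). Across the 29 clusters each member's level followed that of its own list with Pearson's r from 0.73 for *Anln* to 0.99 for *Tpx2*, which targets Aurora A to the spindle. With the other list r was 0.59 for *Anln* and 0.97 for *Tpx2*. For some members it was the higher of the 2, such as *Dtl*, at 0.93 against 0.89. These r so do not separate the 2 lists. These 29 points come from the same 3 libraries and r is given as a description.

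Counted by cell, the classes held the same order. Each cell was thinned to 2000 UMIs, shallower cells were left out, and a cell with at least 3 mitotic UMIs was counted as positive. In matrix the share was 74.7% of 198 cells in Neg (68.1 to 80.6%), 76.2% of 252 cells in AA (70.4 to 81.3%) and 71.3% of 275 cells in AA+Ab (65.5 to 76.5%). In the hair shaft it was 53.0% of 181 cells in Neg (45.5 to 60.5%), 39.6% of 192 cells in AA (32.6 to 46.9%) and 40.5% of 210 cells in AA+Ab (33.8 to 47.4%). In the inner root sheath it was 66.5% of 203 cells in Neg (59.6 to 73.0%), 69.9% of 163 cells in AA (62.3 to 76.9%) and 67.3% of 153 cells in AA+Ab (59.3 to 74.7%). The hair shaft stood out from the other bulb classes by a lower share in AA and in AA+Ab than in Neg, though the intervals of Neg overlap with both. Epidermal cells had 6.80% of 2557 cells, 5.01% of 3550 cells and 7.02% of 3630 cells in Neg, AA and AA+Ab, and bulge cells 10.1% of 666 cells, 9.72% of 1348 cells and 9.69% of 1476 cells. Over all cells the share was 23.3% of 6203 cells in Neg (22.3 to 24.4%), 15.6% of 10107 cells in AA (14.9 to 16.3%) and 20.5% of 9422 cells in AA+Ab (19.6 to 21.3%), where 379, 326 and 410 cells were too shallow. Without thinning, the shares over all cells were 54.4, 38.5 and 49.4%, and they move with depth. Skeletal muscle cells, which should not divide, had 3 of 35 positive cells in Neg, 0 of 33 in AA and 0 of 20 in AA+Ab, where 0 allows shares of up to 9.09% and 15%, taken as 3 cells of the total. The interval in Neg was 1.8 to 23.1%, so the background is poorly set. The median depths of the muscle cells, between 1958 and 4172 UMIs, were well under the library medians.

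**Figure D2:**
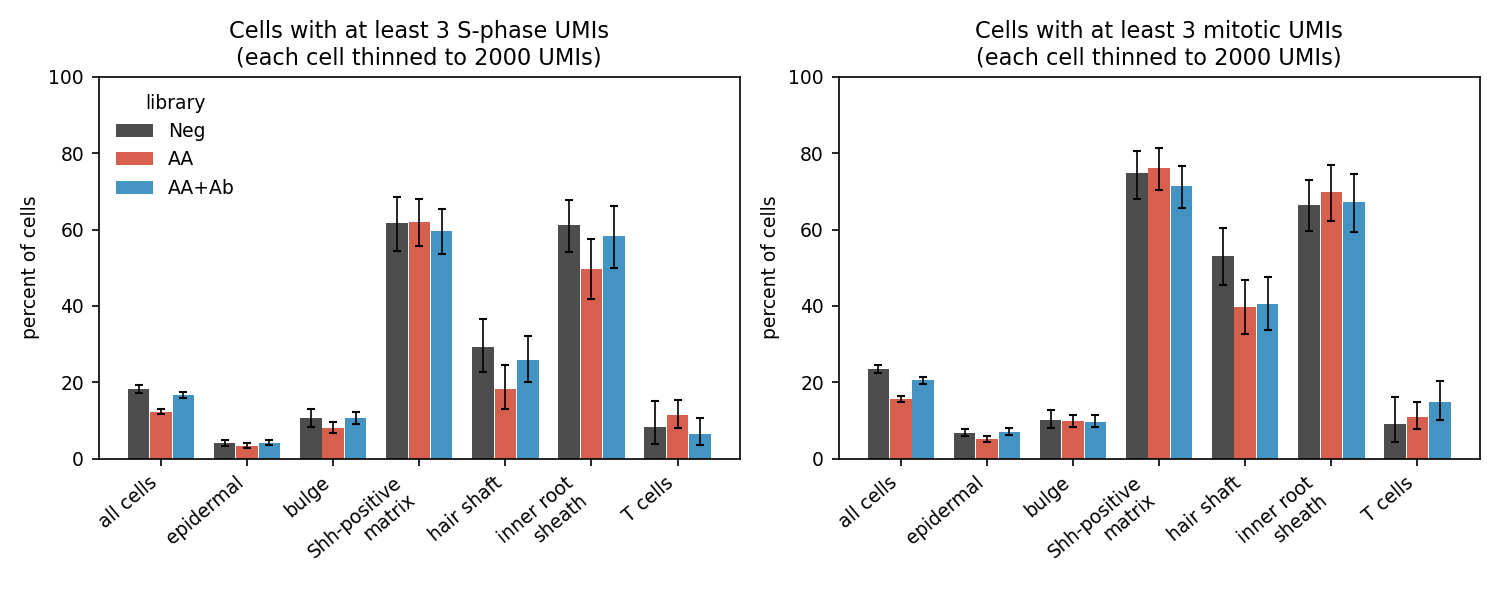
Share of cells (percent, with 95% Clopper-Pearson intervals) with at least 3 UMIs of the S-phase or the mitotic list after thinning each cell to 2000 UMIs, by class and library. Between 71.3% and 76.2% of matrix cells and between 5.01% and 7.02% of epidermal cells passed for the mitotic list.

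Positive cells carried most of the signal. They held 83.5, 82.8 and 84.3% of the mitotic UMIs of the epidermis in Neg, AA and AA+Ab and 94.3, 96.1 and 95.7% of those of matrix. Within positive cells the mitotic level was 7260.4, 9124 and 8943 CPM in the epidermis, 4869, 5022 and 5501 CPM in matrix, 4917, 5376 and 5951 CPM in the hair shaft and 5222, 5941 and 6032 CPM over all cells. Positive cells of AA so stood above those of Neg in these 3 classes, while their share was lower over all cells. In T cells, with 10, 35 and 30 positive cells, the level went the other way, 7055, 3960.0 and 4419 CPM. Because positive cells were chosen by mitotic UMIs, these levels are a description.

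The S-phase shares told the classes apart in the same way but set the libraries apart differently. Matrix cells with at least 3 S-phase UMIs were 61.6, 61.9 and 59.6% of Neg, AA and AA+Ab. Inner root sheath cells were 61.1, 49.7 and 58.2% and hair shaft cells 29.3, 18.2 and 25.7%, lowest in AA in both. The intervals of these shares overlapped between libraries. Cells with at least 3 UMIs of both lists were 44.4, 46.4 and 41.1% of matrix cells, 2.78, 1.80 and 2.26% of epidermal cells and 12.7, 7.82 and 10.8% of all cells.

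The lower level of AA over all cells was placed by adding up what each group of cells gave to the mitotic level, in mitotic UMIs of that group per 1000000 UMIs of the whole library. Cluster 5 gave 678, 520.0 and 745 CPM in Neg, AA and AA+Ab, epidermal cells 319, 259 and 344 CPM, the inner root sheath 185, 113 and 107 CPM and the hair shaft 132, 70.5 and 102 CPM. Bulge cells gave 85.9, 129 and 125 CPM and so went the other way. T cells gave 11.4, 11.4 and 11.3 CPM. Of the total difference of -355 CPM between AA and Neg, cluster 5 made up -158, the inner root sheath -71.7, the hair shaft -61.7 and epidermal cells -59.8 CPM, and bulge cells added 43.0 CPM. The clusters outside the 6 classes and clusters 5, 7 and 18 made up -39.3 CPM together. Cluster 16 among them, 95.9% marked doublets, held 7.65, 3.29 and 5.24% of the mitotic UMIs of Neg, AA and AA+Ab. Clusters 3, 6 and 17 are not in the epidermal class as drawn. They held 1.95, 0.34 and 0.086% of the mitotic UMIs of Neg and 5.47, 0.81 and 2.83% of those of AA. The epidermal term so depends on how that class is drawn.

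The contributions of cluster 5, the inner root sheath and the hair shaft moved with how much of the library each group was. Cluster 5 held 9.39, 5.94 and 7.99% of the cells and 15.01, 11.01 and 14.8% of the UMIs in Neg, AA and AA+Ab, while its own mitotic level was 4515, 4724 and 5041 CPM, no lower in AA. The inner root sheath held 4.80, 2.70 and 2.59% of the UMIs and the hair shaft 4.26, 2.67 and 3.42%. Epidermal cells held 34.9, 32.5 and 34.5% of the UMIs, while their own mitotic level was 912, 796 and 997 CPM, lowest in AA. When each of the 29 clusters was given the share of UMIs it had in Neg, the log2 ratio of AA over Neg was -0.068 for the S-phase list and -0.042 for the mitotic list, and that of AA+Ab over AA was 0.12 and 0.13. In AA over Neg *Mki67* was then at 0.22, the highest mitotic member, and *Ube2c* at -0.32 and *Cdc20* at -0.33 were the lowest. This weighting by cluster was chosen after the levels were seen. The weighting planned beforehand, by class, left both AA over Neg ratios nearer to the unweighted ones than to these. Its values are in the closing section on processing. It held all clusters outside the classes, cluster 5 among them, as a single group. Shares of cells in a suspension depend on how each tissue part came through the digest, so fewer cells of a kind in the skin and fewer recovered cannot be told apart.

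**Figure D3:**
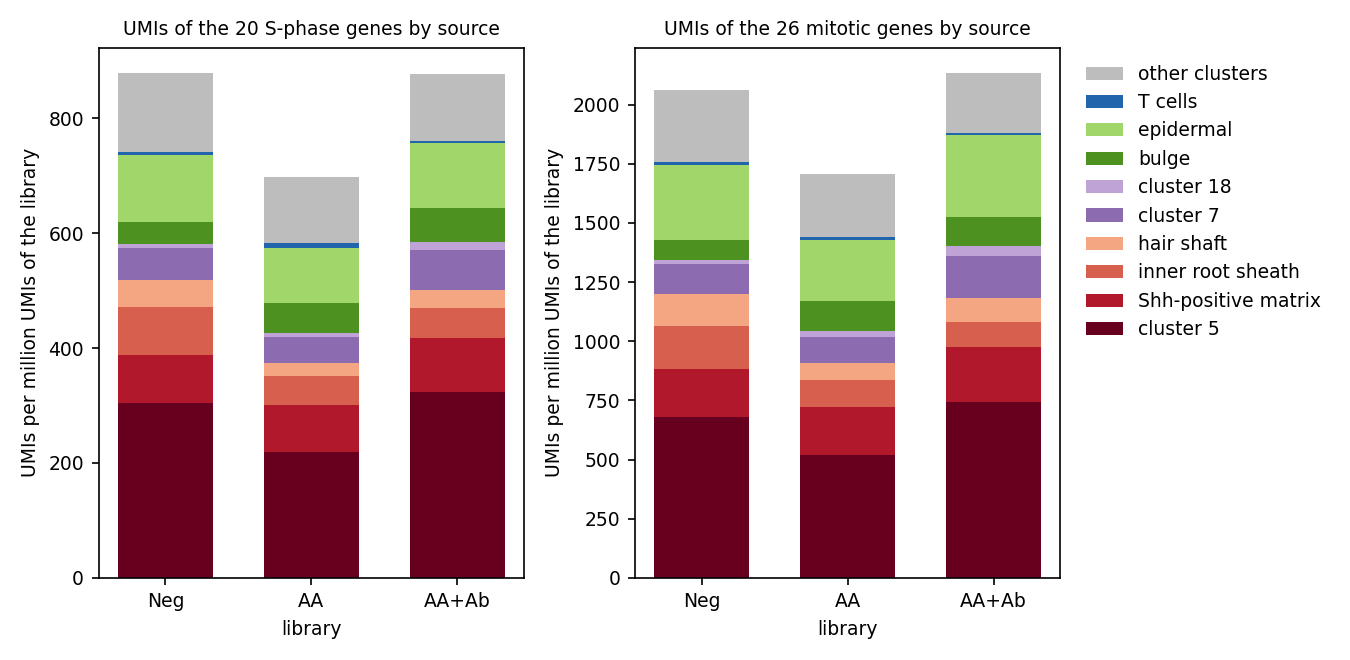
Contribution of each cell group to the S-phase level (left) and the mitotic level (right) of the whole library (CPM, stacked bars that start at 0) in Neg, AA and AA+Ab. Cluster 5, the lowest block, gave 678, 520.0 and 745 CPM of the mitotic level.

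Among single members over all cells, 20 of 20 S-phase and 25 of 26 mitotic genes were lower in AA than in Neg. The counting interval of the log2 ratio lay below 0 for 20 and 23 of them, against 36.3% of the 17890 genes tested, a share that is large because the libraries are deep. The median ratio was -0.31 for the S-phase and -0.28 for the mitotic members, and -0.058 for all genes tested, of which 57.9% were below 0. None of the 46 was 1.5-fold or more apart between AA and Neg in either direction, where 7.72% of all genes were lower and 6.79% higher by that much. In AA+Ab over AA, 20 S-phase and 24 mitotic members were above 0, with the interval above 0 for 19 and 24 of them against 31.8% of all genes. One member passed 1.5-fold, *Rrm2*, where 5.49% of all genes were that much higher and 9.33% lower. The members' medians were 0.32 and 0.35, and that of all genes was 0.0059. Between AA+Ab and Neg 13 S-phase members were below 0 and 7 above, 12 mitotic members below and 14 above, and none was past 1.5-fold, beside 3.71% of all genes higher and 7.34% lower.

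**Figure D4:**
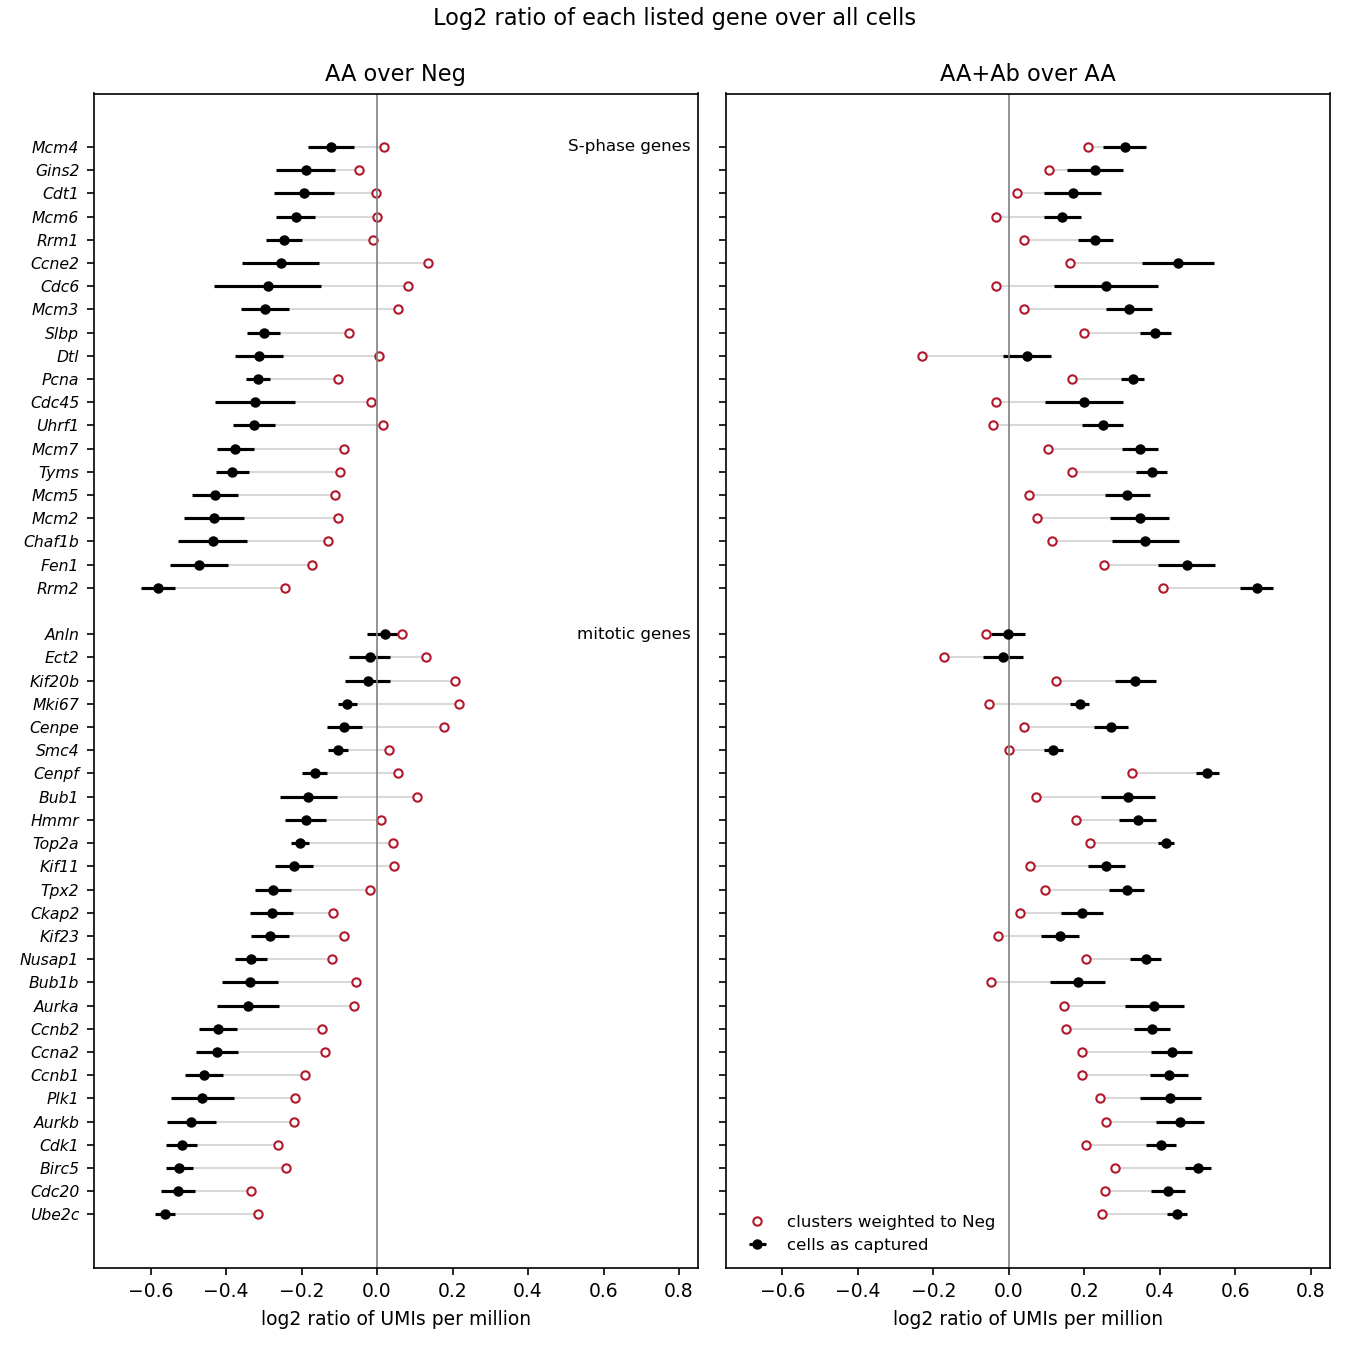
Log2 ratio (with 95% counting interval) of each of the 46 members over all kept cells, AA over Neg and AA+Ab over AA, S-phase and mitotic members apart. Filled points are the cells as captured and open circles the clusters weighted to their UMI shares in Neg. The filled points of AA over Neg lie between -0.58 (Rrm2) and 0.021 (Anln), and those of AA+Ab over AA between -0.016 (Ect2) and 0.66 (Rrm2).

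Of the S-phase members, *Rrm2* of the nucleotide supply had the largest difference. *Rrm2*, the cell-cycle-regulated subunit of ribonucleotide reductase, was at 77.2 CPM in Neg (75.6 to 78.8), 51.6 CPM in AA (50.4 to 52.9) and 81.4 CPM in AA+Ab (79.9 to 82.9), a log2 ratio of -0.58 (-0.62 to -0.53) in AA over Neg and 0.66 (0.61 to 0.70) in AA+Ab over AA. *Rrm1*, its partner subunit, was at 62.3, 52.5 and 61.5 CPM in Neg, AA and AA+Ab, with ratios of -0.25 (-0.29 to -0.20) and 0.23 (0.18 to 0.28). *Tyms*, thymidylate synthase, was at 79.2, 60.7 and 78.9 CPM, ratios -0.38 (-0.43 to -0.34) and 0.38 (0.34 to 0.42). All were lowest in AA, and the interval of *Rrm2* lay apart from that of *Rrm1*. A short gene model overlaps *Rrm1* on its strand.

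Origin licensing and the helicase followed. *Mcm5* was at 39.2, 29.1 and 36.2 CPM, with a log2 ratio of -0.43 (-0.49 to -0.37) in AA over Neg and 0.31 (0.25 to 0.37) in AA+Ab over AA. *Mcm6* was at 52.1, 44.9 and 49.6 CPM, with -0.22 (-0.27 to -0.16) and 0.14 (0.093 to 0.19). *Mcm4* was at 36.0, 33.1 and 40.9 CPM, with -0.12 (-0.18 to -0.060) and 0.31 (0.25 to 0.36), and so was the S-phase member nearest to 0 in AA over Neg. These subunits of 1 complex did not share 1 ratio. The intervals of *Mcm5* and *Mcm4* lay apart in AA over Neg, and in AA+Ab *Mcm4* stood above Neg, at 0.19 (0.13 to 0.24), and *Mcm5* below, at -0.12 (-0.17 to -0.057). *Cdt1*, the loading factor, was at 21.8, 19.0 and 21.4 CPM, with -0.19 (-0.27 to -0.11) and 0.17 (0.093 to 0.25), and *Gins2*, which joins the active helicase, at 22.4, 19.6 and 23.0 CPM, with -0.19 (-0.27 to -0.11) and 0.23 (0.15 to 0.30). *Cdt1* lies in a longer read-through gene model on its own strand, and *Gins2* overlaps other genes on the opposite strand, as does *Fen1*.

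At the replication fork, *Pcna*, the sliding clamp, was at 139.5, 112 and 141 CPM, with ratios of -0.32 (-0.35 to -0.28) and 0.33 (0.30 to 0.36). *Fen1*, the flap nuclease that trims Okazaki fragments, was at 25.3, 18.3 and 25.3 CPM, with -0.47 (-0.55 to -0.40) and 0.47 (0.40 to 0.55). *Chaf1b*, which places histones on new DNA, was at 18.3, 13.6 and 17.4 CPM, with -0.44 (-0.53 to -0.35) and 0.36 (0.27 to 0.45), and *Slbp*, which stabilises histone messages, was at 72.0, 58.5 and 76.6 CPM, with -0.30 (-0.34 to -0.26) and 0.39 (0.35 to 0.43). *Ccne2*, the cyclin of S-phase entry, was at 13.3, 11.1 and 15.2 CPM, with -0.26 (-0.36 to -0.15) and 0.45 (0.35 to 0.54). The exception was *Dtl*, the adaptor of the ligase that destroys *Cdt1* protein in S phase. It was at 35.2, 28.3 and 29.3 CPM, lower in AA than in Neg, -0.31 (-0.38 to -0.25), but not set apart between AA+Ab and AA, 0.048 (-0.016 to 0.11), and so stayed below Neg in AA+Ab, -0.26 (-0.33 to -0.20). The other S-phase members (*Mcm2*, *Mcm3*, *Mcm7*, *Cdc6*, *Cdc45* and *Uhrf1*) had ratios from -0.43 to -0.29 in AA over Neg and from 0.20 to 0.35 in AA+Ab over AA.

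The 7 mitotic members with the lowest AA over Neg ratios act at the start of mitosis, at the spindle and at anaphase. *Ube2c*, the ubiquitin carrier of the anaphase-promoting complex, was at 211 CPM in Neg (208 to 214), 143 CPM in AA (141 to 145) and 195 CPM in AA+Ab (192 to 197), a log2 ratio of -0.56 (-0.59 to -0.54) in AA over Neg and 0.45 (0.42 to 0.47) in AA+Ab over AA. *Cdc20*, the activator of the same complex, was at 73.7, 51.1 and 68.5 CPM, with -0.53 (-0.57 to -0.48) and 0.42 (0.38 to 0.47). *Cdk1* was at 91.0, 63.6 and 84.1 CPM, with -0.52 (-0.56 to -0.48) and 0.40 (0.36 to 0.44), and its cyclin *Ccnb1* at 56.7, 41.2 and 55.4 CPM, with -0.46 (-0.51 to -0.41) and 0.42 (0.38 to 0.47). In the chromosomal passenger complex, which corrects wrong spindle attachments, *Birc5* was at 119, 82.4 and 117 CPM, with -0.52 (-0.56 to -0.49) and 0.50 (0.47 to 0.54), and *Aurkb*, its kinase, at 35.3, 25.1 and 34.4 CPM, with -0.49 (-0.56 to -0.43) and 0.45 (0.39 to 0.52). *Plk1*, a kinase of spindle assembly, was at 21.8, 15.8 and 21.3 CPM, with -0.46 (-0.55 to -0.38) and 0.43 (0.35 to 0.51). In AA+Ab over Neg the intervals of *Ccnb1*, *Birc5*, *Aurkb* and *Plk1* held 0, and those of *Ube2c*, -0.12 (-0.14 to -0.091), *Cdc20* and *Cdk1* lay below it. *Tnnc2*, a muscle gene, overlaps *Ube2c* and *Elovl1* overlaps *Cdc20*, both on the opposite strand.

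*Mki67*, *Top2a*, *Smc4* and *Cenpf*, proteins of mitotic chromosomes, had AA over Neg ratios nearer to 0 than these 7 genes. *Mki67* was at 192 CPM in Neg (189.6 to 195), 182 CPM in AA (179.7 to 184) and 207 CPM in AA+Ab (205 to 209.7), with a ratio of -0.078 (-0.10 to -0.052) in AA over Neg and 0.19 (0.16 to 0.21) in AA+Ab over AA. *Top2a* was at 235, 204 and 272 CPM, with -0.20 (-0.23 to -0.18) and 0.42 (0.39 to 0.44). *Smc4*, a condensin subunit, was at 187, 174 and 189 CPM, with -0.10 (-0.13 to -0.078) and 0.12 (0.092 to 0.14). *Cenpf*, a kinetochore protein, was at 125, 112 and 161 CPM, with -0.17 (-0.20 to -0.13) and 0.53 (0.50 to 0.56), and so stood above Neg in AA+Ab, 0.36 (0.33 to 0.39). Thus *Mki67*, the member most used as a proliferation marker, had a ratio nearer to 0 than the list. The microRNA genes *Mir15b* and *Mir16-2* overlap *Smc4* on its own strand.

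The genes of cell division at the end of mitosis were nearly level between AA and Neg in 3 cases. *Anln* was at 57.6, 58.4 and 58.4 CPM, with 0.021 (-0.026 to 0.067) in AA over Neg and -0.0014 (-0.046 to 0.043) in AA+Ab over AA. *Ect2*, which activates RhoA at the furrow, was at 42.4, 41.8 and 41.3 CPM, with -0.020 (-0.075 to 0.035) and -0.016 (-0.069 to 0.037). *Kif20b*, a motor of the midzone, was at 35.2, 34.6 and 43.7 CPM, with -0.025 (-0.085 to 0.035) and 0.34 (0.28 to 0.39). These were the 3 members whose interval held 0 in AA over Neg. Across the clusters Pearson's r with their own list was 0.73 for *Anln*, 0.88 for *Ect2* and 0.95 for *Kif20b*. *Kif23*, another midzone motor and named here after its values were seen, was at 55.2, 45.4 and 49.8 CPM, with -0.28 (-0.33 to -0.23) and 0.14 (0.086 to 0.19). The other 11 mitotic members (*Ccnb2*, *Ccna2*, *Aurka*, *Bub1*, *Bub1b*, *Cenpe*, *Tpx2*, *Nusap1*, *Hmmr*, *Kif11* and *Ckap2*) had ratios from -0.42 to -0.086 in AA over Neg and from 0.18 to 0.43 in AA+Ab over AA.

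Summed over the epidermis, both lists were lower in AA and the mitotic list was highest in AA+Ab. The class, 2566, 3559 and 3640 cells of Neg, AA and AA+Ab in 4 clusters, expressed *Krt5* at 4752, 4584 and 4750.5 CPM. The mitotic list was at 912 CPM in Neg (903 to 921), 796 CPM in AA (788 to 805) and 997 CPM in AA+Ab (988 to 1006), ratios -0.20 (-0.22 to -0.17) in AA over Neg and 0.32 (0.30 to 0.34) in AA+Ab over AA. The S-phase list was at 336, 294 and 327 CPM, ratios -0.19 (-0.23 to -0.16) and 0.15 (0.12 to 0.18). In AA over Neg 18 S-phase and 24 mitotic members were below 0, with medians of -0.23 and -0.23 beside -0.064 for all 13548 genes tested, and none was past 1.5-fold (7.5% of genes lower, 2.7% higher). The lowest were *Rrm2*, at 19.5, 13.3 and 17.2 CPM, -0.55 (-0.71 to -0.40), and *Cdk1*, at 39.3, 26.9 and 36.5 CPM, -0.55 (-0.66 to -0.44). *Mki67* was at 67.0, 63.9 and 71.0 CPM, -0.068 (-0.14 to 0.0083), an interval that held 0. In AA+Ab over AA 24 mitotic members were above 0 and *Ube2c* passed 1.5-fold (3.94% of genes higher, 5.76% lower), at 74.4, 53.4 and 89.5 CPM, 0.75 (0.67 to 0.82). *Cenpf* was at 53.9, 52.9 and 77.4 CPM, 0.55 (0.47 to 0.62). None was past it between AA+Ab and Neg (1.58% of genes higher, 7.43% lower). Members named within a class are those past 1.5-fold, those at either end of the ratios and those named for all cells, chosen after their values were seen.

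Within the epidermis the mitotic ratio was farther from 0 in suprabasal than in basal cells. In basal cells, 1999, 2539 and 2761 of them, the mitotic list was at 1177, 1127 and 1361 CPM, a ratio of -0.063 (-0.085 to -0.040) in AA over Neg and 0.27 (0.25 to 0.29) in AA+Ab over AA. In suprabasal cells, 567, 1020 and 879 of them, it was at 428, 196 and 299.9 CPM, ratios -1.12 (-1.19 to -1.06) and 0.61 (0.55 to 0.68). The 2 basal clusters went different ways in AA over Neg, -0.24 (-0.27 to -0.21) in cluster 0, with *Depp1* among its leading genes, and 0.27 (0.23 to 0.30) in cluster 2, with *Il20ra* among them. *Mki67* in suprabasal cells was at 31.6, 12.4 and 19.5 CPM, -1.35 (-1.59 to -1.10), against 86.3, 92.3 and 98.0 CPM, 0.096 (0.015 to 0.18), in basal cells. *Pcna*, by contrast, was at 56.1, 50.5 and 53.8 CPM in suprabasal and 67.3, 58.5 and 68.3 CPM in basal cells. The suprabasal level rests on few cells: 47 of 567, 20 of 1020 and 31 of 879 had at least 10 mitotic UMIs, and 12, 11 and 11 of these were marked as doublets. Without marked doublets the suprabasal level was 283, 135 and 210.4 CPM, and the ratio for the whole class in AA over Neg was -0.11 in place of -0.20. The part of doublets in the suprabasal difference was otherwise not tested. Over the other ways of drawing or counting the class, the epidermal mitotic ratio of AA over Neg ran from -0.66 to -0.11.

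In bulge and outer root sheath cells the S-phase list was lower in AA and the mitotic list was nearly level. The 668, 1356 and 1482 cells, in clusters 1 and 11, expressed *Krt15* at 3445, 2928 and 3283 CPM, while *Cd34* was found in only 10.5, 9.73 and 4.59% of them. Of the other listed markers, *Sox9*, *Postn* and *Barx2* were in at least 63.4% of cells of each library. *Nfatc1*, *Lhx2* and *Lgr5* were in at most 37.5% of cells of a library, and *Fgf18* in at most 0.81%. The S-phase list was at 555, 464 and 547 CPM, ratios -0.26 (-0.31 to -0.20) and 0.24 (0.19 to 0.29), and the mitotic list at 1223, 1164 and 1156 CPM, ratios -0.071 (-0.11 to -0.035) and -0.011 (-0.041 to 0.019). Of the S-phase members 18 were below 0 in AA over Neg (median -0.27), against 46.7% of all 12286 genes tested. *Fen1*, at 14.7, 9.39 and 10.7 CPM, and *Aurkb*, at 19.8, 12.3 and 12.8 CPM, were past 1.5-fold lower in AA (3.72% of genes lower, 7.11% higher), with ratios of -0.65 (-1.005 to -0.28) and -0.69 (-0.997 to -0.38). *Cenpe* was the highest mitotic member in AA over Neg, at 27.8, 36.7 and 30.1 CPM, 0.40 (0.18 to 0.63). In AA+Ab over AA *Cdc6*, the helicase loader, at 26, 35 and 64 UMIs, and *Ccne2*, at 76, 96 and 145 UMIs, were past 1.5-fold higher (2.18% of genes higher), with ratios of 0.86 (0.25 to 1.4997) and 0.59 (0.20 to 0.97). In AA+Ab over Neg *Aurkb* was past 1.5-fold lower, -0.63 (-0.93 to -0.32) (8.36% of genes lower, 1.95% higher).

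The 2 bulge clusters went different ways. In cluster 1, 551, 975 and 1308 cells, the mitotic list was at 1116, 1264 and 1211 CPM, 0.18 (0.14 to 0.22) in AA over Neg. In cluster 11, led by *Trabd2b*, *Enox1* and *Il31ra* and of 117, 381 and 174 cells, it was at 1629, 975 and 824 CPM, -0.74 (-0.81 to -0.67). The 10 cells with the most mitotic UMIs held 83.9, 51.6 and 79.2% of the mitotic UMIs of cluster 11, and 8, 8 and 9 of them were marked as doublets. Without marked doublets cluster 11 was at 676, 454 and 292 CPM and cluster 1 at 1141, 1276 and 999 CPM. The mitotic ratio of the bulge class in AA over Neg was 0.22 when cells were classed one by one from their marker UMIs, the other direction, and that of AA+Ab over AA was -0.44 with cell cycle genes kept in the clustering.

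Shh-positive matrix cells had nearly the same levels in AA and Neg. There were 199, 252 and 275 of them, with *Shh* UMIs in 44.7, 51.6 and 59.3% of cells. The mitotic list was at 4149 CPM in Neg (4097 to 4202), 4207 CPM in AA (4157 to 4257) and 4465 CPM in AA+Ab (4416 to 4514), ratios 0.020 (-0.0052 to 0.045) in AA over Neg and 0.086 (0.063 to 0.11) in AA+Ab over AA, and the S-phase list at 1718, 1684 and 1850.3 CPM, ratios -0.029 (-0.068 to 0.010) and 0.14 (0.099 to 0.17). No member passed 1.5-fold in any pair of libraries (4.36% of 10784 genes higher and 2.81% lower in AA over Neg, 2.66% and 9.19% in AA+Ab over AA, 3.24% and 6.91% in AA+Ab over Neg). *Mki67* was at 355, 439 and 408 CPM, 0.31 (0.22 to 0.39) in AA over Neg, and *Ccne2* at 23.3, 32.2 and 26.6 CPM, 0.47 (0.15 to 0.79), while *Ube2c* was the lowest member, at 554, 437 and 476 CPM, -0.34 (-0.42 to -0.27). *Top2a* was at 477, 509.7 and 591 CPM, 0.21 (0.15 to 0.28) in AA+Ab over AA. The class median ratios were -0.039 and -0.029 for the lists and 0.045 for all genes.

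Among the named bulb classes, the hair shaft was the one with both lists lower in AA. Its 181, 193 and 211 cells expressed *Krt35* in 95.6, 94.3 and 96.7% of cells, while *Krt33b* and *Krt34* were at 0 UMIs and *Krt31* was in at most 3.32% of cells of a library. These last are keratins of the mature shaft. The S-phase list was at 1139 CPM in Neg (1109.9 to 1169), 877 CPM in AA (846 to 908) and 922 CPM in AA+Ab (895 to 949), ratios -0.38 (-0.44 to -0.32) in AA over Neg and 0.072 (0.0063 to 0.14) in AA+Ab over AA. The mitotic list was at 3102, 2639.5 and 2998 CPM, ratios -0.23 (-0.27 to -0.20) and 0.18 (0.15 to 0.22). In AA over Neg 18 of 20 S-phase and 22 of 26 mitotic members were below 0, with medians of -0.42 and -0.28 beside 0.035 over 9787 genes. *Fen1*, at 41.7, 21.0 and 33.1 CPM, *Mcm4*, at 33.3, 22.1 and 32.7 CPM, and *Cdk1*, at 137, 88.6 and 100.4 CPM, passed 1.5-fold lower (4.13% of genes lower, 5.84% higher), with ratios of -0.99 (-1.39 to -0.61), -0.59 (-0.99 to -0.20) and -0.63 (-0.82 to -0.44). *Mki67* went the other way, at 292, 329 and 298 CPM, 0.18 (0.065 to 0.29). *Fen1* and *Plk1*, the latter at 30.9, 22.4 and 35.6 CPM, passed 1.5-fold higher in AA+Ab over AA (3.46% of genes), with 0.66 (0.26 to 1.07) and 0.67 (0.28 to 1.07). Against Neg *Kif20b* passed higher in AA+Ab, 0.59 (0.33 to 0.84) (3.19% of genes), and *Mcm6* lower, -0.61 (-0.89 to -0.33) (6.16%). The median depth was 25674 UMIs in Neg, 17975 in AA and 21161 in AA+Ab, lowest where the lists were lowest, and its part was not tested. When cells were classed one by one from marker UMIs, the S-phase ratio of AA over Neg was 0.074 and the mitotic ratio -0.58. The S-phase level was then lower in AA+Ab than in AA, 731 against 797 CPM. With cell cycle genes kept in the clustering it was also lower, 243 against 306 CPM. With only the listed ones left out it was 889 against 898 CPM. A higher cluster resolution left the class unchanged. Cluster 7, unnamed and with *Krt75* and *Tchh* among its leading genes, had both lists lower in AA too. Its AA over Neg ratios were -0.21 (-0.26 to -0.15) and -0.080 (-0.11 to -0.048).

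The inner root sheath, which moulds the growing shaft, had higher levels of both lists in AA than in Neg. Its 203, 163 and 153 cells carried *Krt28* UMIs in 97.0, 98.2 and 98.7% of cells. Of its other listed markers, *Krt25*, *Krt27*, *Krt71* and *Gata3* were in at least 74.9% of cells of each library. *Tchh*, *Krt73* and *Krt72* were in fewer, at 21.2, 31.0 and 0.99% in Neg. The S-phase list was at 1716 CPM in Neg (1682 to 1749.9), 1882 CPM in AA (1838 to 1927) and 2018 CPM in AA+Ab (1972 to 2065), ratios 0.13 (0.089 to 0.18) in AA over Neg and 0.10 (0.053 to 0.15) in AA+Ab over AA. The mitotic list was at 3858, 4199 and 4118 CPM, ratios 0.12 (0.093 to 0.15) and -0.028 (-0.061 to 0.0045). In AA over Neg 18 S-phase and 20 mitotic members were above 0, with medians of 0.16 and 0.11 beside 0.054 for all genes, of which 41.6% were below 0, and none was past 1.5-fold (4.3% of 9775 genes higher, 2.63% lower). *Mki67* was at 484, 599 and 531 CPM, 0.31 (0.22 to 0.39), and *Cdt1* at 29.0, 41.0 and 44.4 CPM, 0.50 (0.17 to 0.82). *Cdc20* was the lowest, at 108, 91.5 and 77.0 CPM, -0.24 (-0.43 to -0.041). *Rrm2* was at 175, 155 and 235 CPM, past 1.5-fold higher in AA+Ab over AA, 0.59 (0.44 to 0.75) (2.79% of genes), and *Cdt1* and *Ccne2* were past it in AA+Ab over Neg, 0.61 (0.29 to 0.94) and 0.67 (0.40 to 0.94) (2.37% of genes higher, 5.57% lower). The shares of cells positive for the S-phase list, 61.1, 49.7 and 58.2%, did not have the direction against Neg, and those for the mitotic list, 66.5, 69.9 and 67.3%, were higher in AA. With cell cycle genes kept in the clustering the mitotic ratio of AA over Neg was -0.051.

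**Figure D5:**
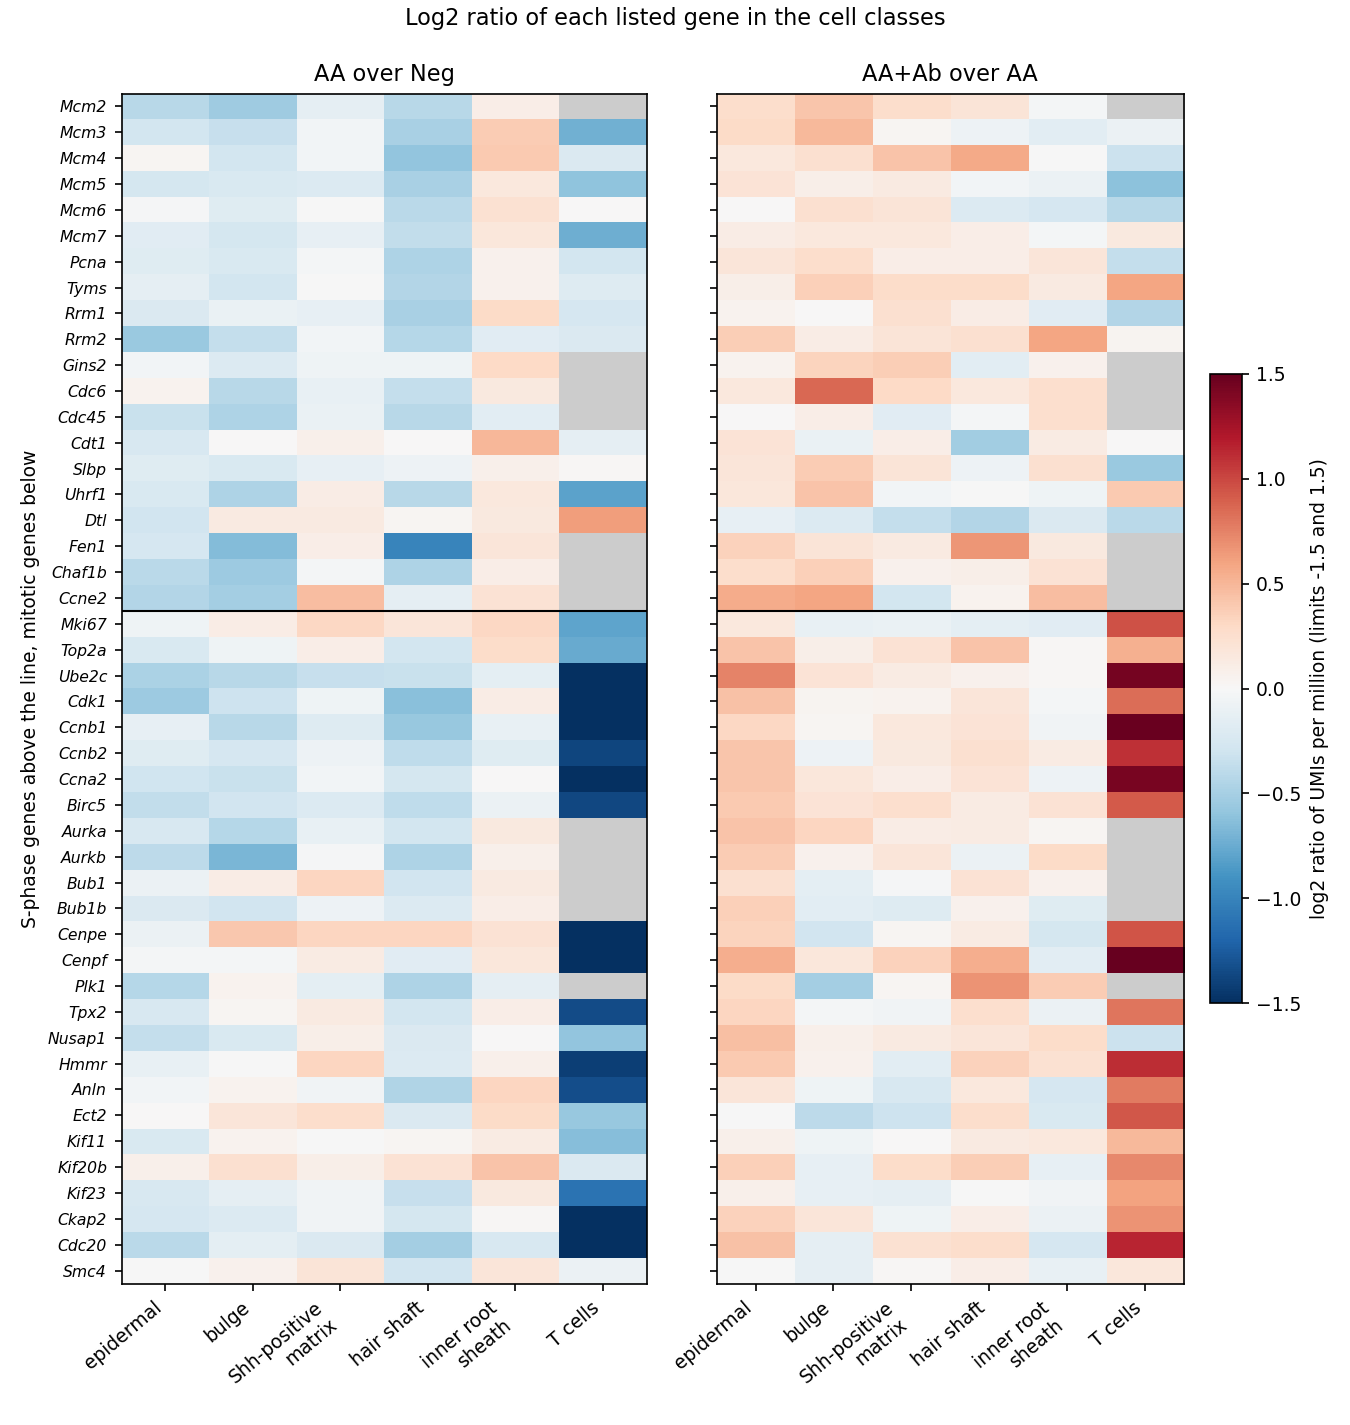
Log2 ratio of each member in each of 6 cell classes, AA over Neg and AA+Ab over AA, as a colour grid with classes in columns and members in rows. Blue is below 0, red above 0, the scale ends at -1.5 and 1.5, and members under 60 UMIs are grey. In T cells the mitotic members run from -2.47 (Ccnb1) to -0.089 (Smc4) in AA over Neg among those with at least 60 UMIs, and no keratinocyte class has a member beyond -0.99.

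T cells, 116, 395 and 239 in Neg, AA and AA+Ab, had the widest ratios on the fewest mitotic UMIs of the 6 classes. *Cd3e*, a subunit of the T-cell receptor complex, was in 44.8, 69.6 and 63.6% of these cells and *Cd8a* in 8.62, 47.6 and 23.0%. Of the other listed markers, *Cd3d*, *Cd3g*, *Trac*, *Cd8b1* and *Lck* were also in a larger share of cells in AA than in Neg. The rest were in a smaller share in AA: *Trbc1* at 67.2, 52.7 and 51.0%, *Trbc2* at 71.6, 65.6 and 74.1% and *Cd4* at 15.5, 9.11 and 19.2%. The mitotic list was at 1539 CPM in Neg (1458 to 1623), 747 CPM in AA (710.5 to 786) and 1227 CPM in AA+Ab (1167 to 1289), ratios -1.04 (-1.15 to -0.94) in AA over Neg and 0.72 (0.61 to 0.82) in AA+Ab over AA. The S-phase list was at 678, 563 and 492 CPM, ratios -0.27 (-0.41 to -0.12) and -0.20 (-0.34 to -0.054). Of the 34 members with at least 60 UMIs, 13 S-phase and 21 mitotic, 22 were past 1.5-fold lower in AA (9.19% of 7520 genes lower, 14.5% higher): *Mcm3*, *Mcm5*, *Mcm7*, *Uhrf1* and 18 mitotic members. *Dtl* alone was past it in the other direction, at 10, 36 and 17 UMIs. *Ube2c* was at 131, 24.3 and 65.9 CPM, -2.43 (-2.94 to -1.94), *Mki67* at 127, 73.3 and 142 CPM, -0.79 (-1.15 to -0.42), and *Ccnb1*, the lowest, at 38, 16 and 28 UMIs. *Tyms* and 17 mitotic members were past 1.5-fold higher and *Mcm5* lower in AA+Ab over AA (7.47% of genes higher, 11.2% lower), and in AA+Ab over Neg 11 members were lower and none higher (8.87% of genes lower, 9.93% higher).

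These T-cell values rest on a handful of cells. The 10 cells with the most mitotic UMIs held 85.1, 48.4 and 63.7% of the mitotic UMIs in Neg, AA and AA+Ab. Cells with at least 10 mitotic UMIs numbered 8, 18 and 16, of which 3, 4 and 7 were marked as doublets. The 8 of Neg had a median of 17825.5 UMIs against 5186.5 in the other T cells of Neg, and *Cd3e* at 32.9 against 231 CPM. In the 18 of AA *Cd3e* was at 199.7 CPM and in the 16 of AA+Ab at 188 CPM. *Krt5*, a basal keratin, was at 1278, 1132 and 1079 CPM and *Krt14*, its partner, at 2104, 2563 and 2608 CPM in the T-cell class, and *Krt5* was at 1526, 1216 and 742 CPM in muscle cells, so keratinocyte RNA was present in both. When cells were classed one by one from marker UMIs, the mitotic level of T cells was 413, 730 and 1415 CPM, and the ratio of AA over Neg 0.82, the other direction. The share of T cells with at least 3 mitotic UMIs was 9.09% of 110 cells in Neg (4.45 to 16.1%), 10.97% of 319 cells in AA (7.76 to 14.9%) and 14.7% of 204 cells in AA+Ab (10.1 to 20.3%), with 6, 76 and 35 shallower cells left out, again lowest in Neg, and the intervals overlap. Without marked doublets the mitotic ratio was -0.86 for AA over Neg and 0.18 for AA+Ab over AA. The mitotic ratio of AA over Neg in T cells so had no stable direction across these measures.

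Gamma-delta T cells, a resident population of mouse epidermis, 163, 111 and 214 cells with *Trdc* in 97.5, 89.2 and 95.8% of them, had the mitotic list at 518, 831 and 1378 CPM, ratios 0.68 (0.51 to 0.85) and 0.73 (0.58 to 0.88), and the S-phase list at 613, 664 and 638 CPM. *Top2a* was at 56, 58 and 171 UMIs and *Mki67* at 70, 69 and 109 UMIs. Here too the 10 highest cells held most of the mitotic UMIs, 63.3, 84.0 and 80.3%, with 9, 2 and 7 marked as doublets. The share of positive cells was 6.67% of 150 cells, 7.37% of 95 cells and 10.9% of 192 cells.

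Around the members, 5 further groups of cell cycle genes were counted over all cells: 13 cyclins and kinases, 8 inhibitors of cyclin-dependent kinases, 15 transcription regulators, 10 checkpoint genes and 17 other proliferation-linked genes, all above 60 UMIs. In AA over Neg 1 of the 63 was past 1.5-fold higher, *Cdkn2a*, which encodes p16 and p19Arf, at 13, 34 and 41 UMIs, and 2 were lower, against 6.79% of all genes higher and 7.72% lower. The lower ones were *Wee1*, the kinase that holds *Cdk1* back, at 190.0, 113 and 122 CPM, -0.75 (-0.78 to -0.72), and *Cdkn3*, a phosphatase of *Cdk1* and *Cdk2* whose own level peaks with mitosis, at 19.1, 12.5 and 17.2 CPM, -0.61 (-0.70 to -0.52). *Pclaf*, a partner of *Pcna* at replication forks, was past it higher in AA+Ab over AA, at 232, 166 and 256 CPM, 0.63 (0.60 to 0.65), and *Gadd45b*, a stress-induced gene, lower, at 92.9, 126 and 74.0 CPM, -0.77 (-0.80 to -0.73), against 5.49% and 9.33% of all genes. No transcription regulator of the E2F, RB, MYB or MYC families was past 1.5-fold over all cells in these 2 comparisons. Between AA+Ab and Neg *Cdkn2a* was past it higher and *Wee1* lower, -0.64 (-0.67 to -0.61), against 3.71% and 7.34% of all genes.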

How the data were processed

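Single-cell libraries (10x 3′ v3.1, poly(dT) priming) were made from digested dorsal skin after a Percoll gradient. The deposited values are raw UMI counts per gene and cell, as the authors made them. Cell Ranger 7.2.0, FastQC 0.11.7 and the build mm10 are named in the submitters' processing notes. The annotation release and the intron setting are not given in the sources used here, so values of overlapping genes are uncertain. Cells with at most 10% mitochondrial UMIs and at least 200 genes were kept, the UMIs of a library's class were added up, and CPM was taken over all UMIs of the same cells. Exact Poisson (levels), conditional (ratios) and Clopper-Pearson (shares) intervals of 95% cover counting error only, and because mitotic UMIs clump in few cells they are too narrow. With 1 library per group no p-value was computed. Genes under 60 UMIs over the 3 libraries were not tested against 1.5-fold.

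Clusters (2000 variable genes, 30 principal components, 20 neighbours, Leiden resolution 0.8) were built over the 3 libraries with leidenalg 0.10.2 and scikit-learn 1.9.0, leaving out 541 cell cycle genes and 433 genes that followed them inside first clusters. A cluster took a name from at least 3 and at least 40% of a list's markers. Each had to be in 10% of its cells and 2-fold above the other cells (5 CPM added to both). No name was given if more markers of another list were among its 10 leading genes. Cluster 6 was left unnamed by a further rule: median UMIs under 0.333 of the library median and no marker of the list among the leading genes. The matrix name also needed *Shh* to pass, and a cluster that passed all gamma-delta T-cell markers took that name. Doublets were scored from simulated doublets at 0.8% per 1000 barcodes and kept, 367 in Neg, 908 in AA and 826 in AA+Ab. Python 3.11.15 was used (pandas 2.3.3, scipy 1.17.1, numpy 2.4.6, igraph 0.11.9, matplotlib 3.10.9). On simulated data the ratio step recovered 98.5% of 200 genes changed 2-fold among 17890 (AA over Neg, all cells). The alternatives were removal of doublets, a smaller total, a 5% mitochondrial limit, thinning to 1000 UMIs, lists without their 3 top genes, other classes and weights, and other UMI minimums. Members were named by a rule: in each list the 5 with most UMIs, the 3 highest and 3 lowest ratios in AA over Neg and AA+Ab over AA, and 12 landmark genes. The members and lists were chosen with earlier results of these data known. Gene positions were read from GENCODE vM21 (GRCm38).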

Additional observations from a re-analysis of the deposited data

Results flagged for a closer look

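Ratios of summed levels went opposite ways in different cell classes of the same libraries. For the S-phase list in AA over Neg, the log2 ratio was -0.19 in epidermal cells, -0.26 in bulge cells, -0.38 in the hair shaft and -0.27 in T cells, but 0.13 in the inner root sheath. For the mitotic list in the same comparison it was -0.20 in epidermal cells, -0.071 in bulge cells, -0.23 in the hair shaft and -1.04 in T cells, against 0.12 in the inner root sheath. None of these differences between classes was tested, since each group is 1 library.

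Within related cells the direction also differed. The mitotic ratio of AA over Neg was -0.74 in bulge cluster 11 and 0.18 in bulge cluster 1, and it was -1.04 in T cells and 0.68 in gamma-delta T cells. In cluster 11 the 10 cells with the most mitotic UMIs held between 51.6% and 83.9% of them and in T cells between 48.4% and 85.1%. With cells classed one by one from marker UMIs the mitotic ratio of T cells was 0.82, so it had no stable direction. The differences between clusters and between T-cell classes were not tested.

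For the S-phase list in AA+Ab over AA, the ratio was -0.20 in T cells, while it was 0.15 in epidermal cells, 0.24 in bulge cells, 0.14 in matrix cells, 0.072 in the hair shaft and 0.10 in the inner root sheath. It was -0.41 in bulge cluster 11 and 0.38 in bulge cluster 1. In the hair shaft it turned its direction under some other ways of drawing the class. Again the difference was not tested.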

How the results depend on the processing

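No paired analysis was possible because each group is 1 pooled library and the labels carry no replicate numbers. Leaving out a replicate was not possible for the same reason. Counting set the limit for single members in small classes, and mouse-to-mouse spread cannot be had. Values are log2 ratios, and a value is given where it moved outside the counting interval of the value as reported or turned its direction. The cause of the moves was not tested, except that weights and fewer cells are part of how a setting was built.

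Without cells marked as doublets, over all cells the S-phase ratio was -0.31 for AA over Neg and 0.020 for AA+Ab over Neg and the mitotic ratio was -0.22 for AA over Neg, 0.28 for AA+Ab over AA and 0.062 for AA+Ab over Neg. In epidermal cells the mitotic ratio was -0.11 for AA over Neg and 0.20 for AA+Ab over AA. In the bulge the S-phase ratio was 0.32 for AA+Ab over AA and the mitotic ratio was -0.14 for AA+Ab over AA. In matrix cells the mitotic ratio was 0.081 for AA over Neg and 0.046 for AA+Ab over AA. In T cells the S-phase ratio was -0.39 for AA+Ab over AA and the mitotic ratio was -0.86 for AA over Neg and 0.18 for AA+Ab over AA.

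With mitochondrial, ribosomal protein, hemoglobin and keratin genes left out of the total, over all cells the S-phase ratio was -0.37 for AA over Neg and 0.38 for AA+Ab over AA and the mitotic ratio was -0.31 for AA over Neg, 0.37 for AA+Ab over AA and 0.059 for AA+Ab over Neg. In epidermal cells the S-phase ratio was 0.20 for AA+Ab over AA and the mitotic ratio was -0.22 for AA over Neg and 0.37 for AA+Ab over AA. In the bulge the S-phase ratio was -0.31 for AA over Neg and 0.32 for AA+Ab over AA and the mitotic ratio was -0.13 for AA over Neg and 0.069 for AA+Ab over AA. In matrix cells the mitotic ratio was -0.0092 for AA over Neg and 0.12 for AA+Ab over AA. In the inner root sheath the mitotic ratio was 0.078 for AA over Neg and 0.012 for AA+Ab over AA.

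With a mitochondrial limit of 5%, over all cells the S-phase ratio was -0.31 for AA over Neg and 0.025 for AA+Ab over Neg and the mitotic ratio was -0.25 for AA over Neg and 0.080 for AA+Ab over Neg. With each cell thinned to 1000 UMIs, over all cells the S-phase ratio was -0.52 for AA over Neg, 0.43 for AA+Ab over AA and -0.089 for AA+Ab over Neg and the mitotic ratio was -0.37 for AA over Neg, 0.35 for AA+Ab over AA and -0.024 (the other direction) for AA+Ab over Neg. At that depth the ratio of shares with S-phase UMIs was -0.74 for AA over Neg over all cells and 0.30 for AA+Ab over AA in matrix cells.

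Without the 3 members with the most UMIs of each list, over all cells the S-phase ratio was -0.30 for AA over Neg, 0.28 for AA+Ab over AA and -0.018 for AA+Ab over Neg and the mitotic ratio was -0.34 for AA over Neg, 0.36 for AA+Ab over AA and 0.019 for AA+Ab over Neg. With cell classes weighted to their UMI shares in Neg, over all cells the S-phase ratio was -0.28 for AA over Neg and 0.056 for AA+Ab over Neg and the mitotic ratio was -0.21 for AA over Neg and 0.11 for AA+Ab over Neg. With all clusters weighted in this way, chosen after seeing the data, over all cells the S-phase ratio was -0.068 for AA over Neg, 0.12 for AA+Ab over AA and 0.053 for AA+Ab over Neg and the mitotic ratio was -0.042 for AA over Neg, 0.13 for AA+Ab over AA and 0.091 for AA+Ab over Neg.

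With cell cycle genes kept in the clustering, in epidermal cells the S-phase ratio was -0.12 for AA over Neg and the mitotic ratio was -0.31 for AA over Neg and 0.28 for AA+Ab over AA. In bulge cells the S-phase ratio was 0.096 for AA+Ab over AA and the mitotic ratio was -0.22 for AA over Neg and -0.44 for AA+Ab over AA. In matrix cells the mitotic ratio was 0.079 for AA over Neg and 0.057 for AA+Ab over AA. In the hair shaft the S-phase ratio was -0.25 for AA over Neg and -0.34 (the other direction) for AA+Ab over AA and the mitotic ratio was -0.30 for AA over Neg and 0.040 for AA+Ab over AA. In the inner root sheath the S-phase ratio was 0.024 for AA over Neg and 0.16 for AA+Ab over AA and the mitotic ratio was -0.051 (the other direction) for AA over Neg. In T cells the mitotic ratio was -0.79 for AA over Neg. With only the listed cell cycle genes left out, chosen after seeing the data, in epidermal cells the S-phase ratio was -0.23 for AA over Neg and the mitotic ratio was -0.66 for AA over Neg and 0.37 for AA+Ab over AA. In bulge cells the S-phase ratio was 0.17 for AA+Ab over AA and the mitotic ratio was -0.11 for AA over Neg and -0.12 for AA+Ab over AA. In matrix cells the S-phase ratio was -0.070 for AA over Neg and the mitotic ratio was 0.055 for AA over Neg. In the hair shaft the S-phase ratio was -0.013 (the other direction) for AA+Ab over AA and the mitotic ratio was -0.19 for AA over Neg and 0.14 for AA+Ab over AA.

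With cells classed one by one from their marker UMIs, in epidermal cells the S-phase ratio was 0.19 for AA+Ab over AA and the mitotic ratio was -0.11 for AA over Neg and 0.22 for AA+Ab over AA. In the bulge the S-phase ratio was -0.55 for AA over Neg and 0.10 for AA+Ab over AA and the mitotic ratio was 0.22 (the other direction) for AA over Neg. In matrix cells the mitotic ratio was -0.12 for AA over Neg and 0.14 for AA+Ab over AA. In the hair shaft the S-phase ratio was 0.074 (the other direction) for AA over Neg and -0.13 (the other direction) for AA+Ab over AA and the mitotic ratio was -0.58 for AA over Neg and 0.23 for AA+Ab over AA. In the inner root sheath the mitotic ratio was 0.054 for AA over Neg and 0.089 for AA+Ab over AA. In T cells the S-phase ratio was 0.028 (the other direction) for AA over Neg and -0.031 for AA+Ab over AA and the mitotic ratio was 0.82 (the other direction) for AA over Neg and 0.95 for AA+Ab over AA. At a higher cluster resolution, in epidermal cells the mitotic ratio was -0.16 for AA over Neg. In bulge cells the S-phase ratio was 0.18 for AA+Ab over AA and the mitotic ratio was -0.14 for AA over Neg and 0.069 for AA+Ab over AA. In matrix cells the mitotic ratio was 0.054 for AA over Neg. With the unnamed clusters 3, 6 and 17 added, chosen after seeing the data, in epidermal cells the mitotic ratio was -0.14 for AA over Neg. With the clusters of a class weighted to their share in Neg, chosen after seeing the data, in epidermal cells the mitotic ratio was -0.13 for AA over Neg and 0.24 for AA+Ab over AA. In the bulge the mitotic ratio was -0.022 for AA over Neg and -0.091 for AA+Ab over AA.

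With a minimum of 300 UMIs, 1 member was past 1.5-fold higher in bulge cells in AA+Ab over AA. In T cells 5 members reached that minimum, of which 0 were higher and 2 lower in AA over Neg, 1 higher and 0 lower in AA+Ab over AA, and 1 lower in AA+Ab over Neg. With no minimum, 3 members were lower in T cells in AA+Ab over AA. A minimum of 2 UMIs per cell left 28 of 28 share ratios where they were. For members over all cells taken one by one, 28 of 92 ratios moved with the smaller total, 25 of 92 without marked doublets and 5 of 92 at the 5% limit, and none turned its direction.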

Other observations

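Regulators that hold the cycle back also had different levels in the 3 libraries. All genes named here lie outside the 2 lists and were chosen after their values were seen. *Wee1*, the kinase that inhibits *Cdk1*, was at 299.9, 149.9 and 172 CPM in Neg, AA and AA+Ab in epidermal cells and at 194, 99.9 and 159 CPM in bulge cells. Its log2 ratio of AA over Neg was -1.001 (-1.04 to -0.96) in epidermal, -0.96 (-1.06 to -0.86) in bulge and -0.069 (-0.22 to 0.082) in matrix cells, where the interval held 0. The ratio of AA+Ab over AA was 0.67 (0.57 to 0.76) in bulge but -0.70 (-0.87 to -0.54) in matrix cells. *Cdkn1a*, which encodes the inhibitor p21, was at 373, 465 and 408 CPM in epidermal, 195, 237 and 209.9 CPM in bulge and 28.5, 39.6 and 28.3 CPM in matrix cells, highest in AA in each, but at 148, 175 and 202 CPM in the hair shaft and 85.5, 98.3 and 101 CPM in the inner root sheath, highest in AA+Ab. *Mdm2*, another target of p53, was at 46.3, 72.7 and 51.9 CPM in epidermal cells, 0.65 (0.57 to 0.73) in AA over Neg and -0.48 (-0.56 to -0.41) in AA+Ab over AA, and at 52.3, 70.9 and 53.8 CPM in bulge cells. The differences between classes were not tested.

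Genes that start the cycle did not share a direction. *Ccnd3*, a cyclin of G1, was at 61.8, 128 and 88.7 CPM in bulge cells, 1.06 (0.91 to 1.20) in AA over Neg. *Ccnd2*, another G1 cyclin, was at 233, 174 and 239 CPM in bulge cells, -0.43 (-0.51 to -0.34) and so the other way, and at 386, 429 and 572 CPM in matrix cells. *Myc* was at 118, 69.7 and 103 CPM in epidermal cells, -0.75 (-0.82 to -0.69) in AA over Neg. *Gadd45b*, a stress-induced gene, was lower in AA+Ab than in AA in all 6 classes, with log2 ratios from -1.06 (-1.23 to -0.89) in matrix to -0.24 (-0.35 to -0.13) in T cells.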
